A study of Homo sapiens with 5 samples.

Results

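The genes described here encode the proteins of the mitochondrial ribosome. They were taken as every protein-coding gene of the GENCODE 44 annotation whose symbol is MRPL or MRPS followed by a number. This gave 78 of 20033 protein-coding genes, 49 with symbols named for the large subunit (MRPL) and 29 for the small subunit (MRPS). Counts of MRPL and MRPS genes follow the symbol alone, not the place of the protein in the ribosome. The study mapped replication origins in EJ30, an established human bladder carcinoma cell line. For ini-seq 2, EJ30 cells were held in late G1 with mimosine and their nuclei were given HeLa cytosolic extract and Br-dUTP, a dense substitute for dTTP, for 3 h or for 15 min. DNA copied in the reaction carries 1 dense strand (HL, heavy-light) and is parted by density from DNA that was not copied (LL, light-light). For SNS-seq, short nascent strands of 0.5-2 kb and of 2-4 kb were sequenced from EJ30 cells. Each of these 4 conditions was 1 deposited list of intervals, the 3-h list having been made from 2 pooled biological replicates and the 15-min list carrying the label of a control. The genomic DNA input of the SNS-seq was not analysed here. A gene was counted in a list when an interval overlapped it or lay within 1 kb of its 5' end.

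Mitochondrial ribosomes translate the few proteins encoded by mitochondrial DNA, all of them subunits of the complexes of oxidative phosphorylation, while every mitochondrial ribosomal protein is itself encoded in the nucleus and imported. The genes are scattered over the chromosomes and are expressed in nearly all cells, from promoters rich in CpG and often without a TATA box. A divergent promoter is one from which a pair of neighbouring genes on opposite strands is transcribed in opposite directions. Replication origins of human cells lie often at such active promoters, and the efficiency of an ini-seq 2 origin, HL/(HL + LL), sets the replicated DNA at that site against all DNA recovered there.

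The lists held 23905 origins at 3 h, 10181 origins at 15 min, and 147657 and 184966 peaks in the 0.5-2 kb and 2-4 kb SNS-seq fractions. They hold no read counts, so the depth behind an interval is unknown. With 1 list per condition there was no replicate error, and no test between conditions or gene groups was made. Each share is given with its exact 95% interval over genes (Clopper-Pearson), which covers counting error only. Genes that share a promoter are not independent of each other.

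The promoters themselves are shown first, because many of these genes share theirs with a neighbour. The sequences below lie between the 2 annotated 5' ends of a divergent pair on hg38 and are written 5' to 3' along the strand of the ribosomal protein gene. The first 3 pairs had a 3-h origin within 1 kb of the ribosomal protein gene's 5' end, and the last 2 had none. MRPL57-SKA3 and MRPL52-SLC7A7 had the highest and the lowest efficiency among the pairs printed. The others were chosen after their values were seen, to show a pair with a chaperonin gene, the only pair made of 2 mitochondrial ribosomal protein genes, and a pair that joins a ribosomal protein to a mitochondrial tRNA synthetase. Capitals mark matches on either strand to motifs of common promoter factors. These were GCATGCGC for the core of the NRF1 motif, CCGGAAG for factors of the ETS family and AAGATGGC for YY1. They were also GGGCGG for the GC box that Sp1 binds, CCAAT for the box that the factor NF-Y binds, and TATAAA for the box bound by the TATA-binding protein.
MRPL57-SKA3, chr13:21176553-21176657, + strand, efficiency 0.9363: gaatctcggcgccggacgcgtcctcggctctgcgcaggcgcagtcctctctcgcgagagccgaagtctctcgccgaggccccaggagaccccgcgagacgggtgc
MRPL18-TCP1, chr6:159789704-159789811, + strand, efficiency 0.9254: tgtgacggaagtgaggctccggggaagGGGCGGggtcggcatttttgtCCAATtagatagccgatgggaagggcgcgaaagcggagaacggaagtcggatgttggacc
MRPL52-SLC7A7, chr14:22829821-22829878, + strand, efficiency 0.8289: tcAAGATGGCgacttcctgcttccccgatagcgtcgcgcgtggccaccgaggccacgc
MRPL46-MRPS11, chr15:88467391-88467452, - strand, no 3-h origin: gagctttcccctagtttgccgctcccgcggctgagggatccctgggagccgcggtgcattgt
MRPS12-SARS2, chr19:38930764-38930943, + strand, no 3-h origin: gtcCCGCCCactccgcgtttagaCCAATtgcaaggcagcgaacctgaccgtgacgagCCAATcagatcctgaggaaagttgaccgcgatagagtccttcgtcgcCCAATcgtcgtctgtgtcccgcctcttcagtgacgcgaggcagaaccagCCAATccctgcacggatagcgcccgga
The 105 bases between MRPL57 and SKA3, a kinetochore gene, had a GC content of 72.4% and held none of the motifs. The 62 bases between MRPL46 and MRPS11 had a GC content of 66.1% and also held none. The window from 250 bp before to 50 bp after the MRPL46 5' end did hold a YY1 match, which was not within the printed bases. The 180 bases between MRPS12, a protein of the decoding centre, and SARS2, the mitochondrial seryl-tRNA synthetase, held 4 CCAAT matches and 1 GC box at a GC content of 60%.

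The next sequence is the 250 bases before the annotated 5' end of MRPL41, a protein of the large subunit. It is shown because this gene had the highest GC content around the 5' end among members with an interval in all 4 lists. Capitals mark GC boxes on either strand.
MRPL41, chr9:137551629-137551878, + strand: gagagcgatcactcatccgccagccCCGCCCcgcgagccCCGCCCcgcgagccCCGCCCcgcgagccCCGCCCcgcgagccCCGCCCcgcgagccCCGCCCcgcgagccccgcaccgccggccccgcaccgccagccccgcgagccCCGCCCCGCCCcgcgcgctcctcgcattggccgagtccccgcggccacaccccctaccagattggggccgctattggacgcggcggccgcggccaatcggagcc
Within 500 bp on each side of the 5' end, MRPL41 had a GC content of 75.7%, and MRPL23, also of the large subunit, had 77.3%, the highest of the members. The upstream stretch of MRPL41 held 8 GC boxes and 43 CpG dinucleotides. MRPL41 carried a 3-h origin of 2100 bp over its 5' end with an efficiency of 0.9491 and a 15-min origin with a Z-score of 0.85. MRPL23 carried none of these, and the nearest 3-h origin outside it lay 16878 bp from its 5' end. Among all 2560 protein-coding genes with a GC content of at least 70%, 1.13% had no interval of any list within 1 kb of the 5' end, and MRPL23 was 1 of 8 members in that range.

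Of the 78 mitochondrial ribosomal protein genes, 47 had a 3-h ini-seq 2 origin, 60.3% (48.5 to 71.2%), beside 66% of all protein-coding genes. At 15 min, 25 had an origin, 32.1% (21.9 to 43.6%), beside 46.5% of all protein-coding genes, a value above the upper end of the members' interval. SNS-seq peaks of 0.5-2 kb were found at 64 members, 82.1% (71.7 to 89.8%), beside 83.2%. Those of 2-4 kb were found at 65 members, 83.3% (73.2 to 90.8%), beside 84.4%. Pooled over gene lengths, the members were near the background at 3 h and in both SNS-seq fractions and below it at 15 min.

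The members were short genes. The median member spanned 11940.5 bp and the median protein-coding gene 27471 bp, so genes of like length were also set side by side. Of the 21 members under 5000 bp, 16 had a 3-h origin, 76.2% (52.8 to 91.8%), beside 41.7% of all protein-coding genes of that length, and 20 had a 2-4 kb peak, 95.2% (76.2 to 99.9%), beside 63.0%. Between 5000 and 20000 bp the members stood at 51.4% (33.99 to 68.6%) beside 62.8% for 3-h origins and at 85.7% (69.7 to 95.2%) beside 81.0% for these peaks. Over 20000 bp they stood at 59.1% (36.4 to 79.3%) beside 73.3% and at 68.2% (45.1 to 86.1%) beside 91.1%. Short members were thus above the background of their length in both lists, and long members below it in the 2-4 kb fraction. In the other comparisons by length the members' interval holds the background. Within 1 kb of the 5' end alone, a 3-h origin was found at 45 members, 57.7% (46.0 to 68.8%), beside 55.4% of all protein-coding genes. A 15-min origin was found there at 21 members, 26.9% (17.5 to 38.2%), beside 38.7%, again above the members' interval. The shares for SNS-seq were 59.0% (46 members) beside 65.2% in the 0.5-2 kb fraction and 75.6% (59 members) beside 73.6% in the 2-4 kb fraction. All 4 lists met at the 5' end of 21 members, 26.9%, beside 37.2% of all protein-coding genes. Every member with a 15-min origin at its 5' end had the other 3 there too. So did 7459 of the 7746 protein-coding genes with a 15-min origin at the 5' end, so this is common to most such genes.

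**Figure D1:**
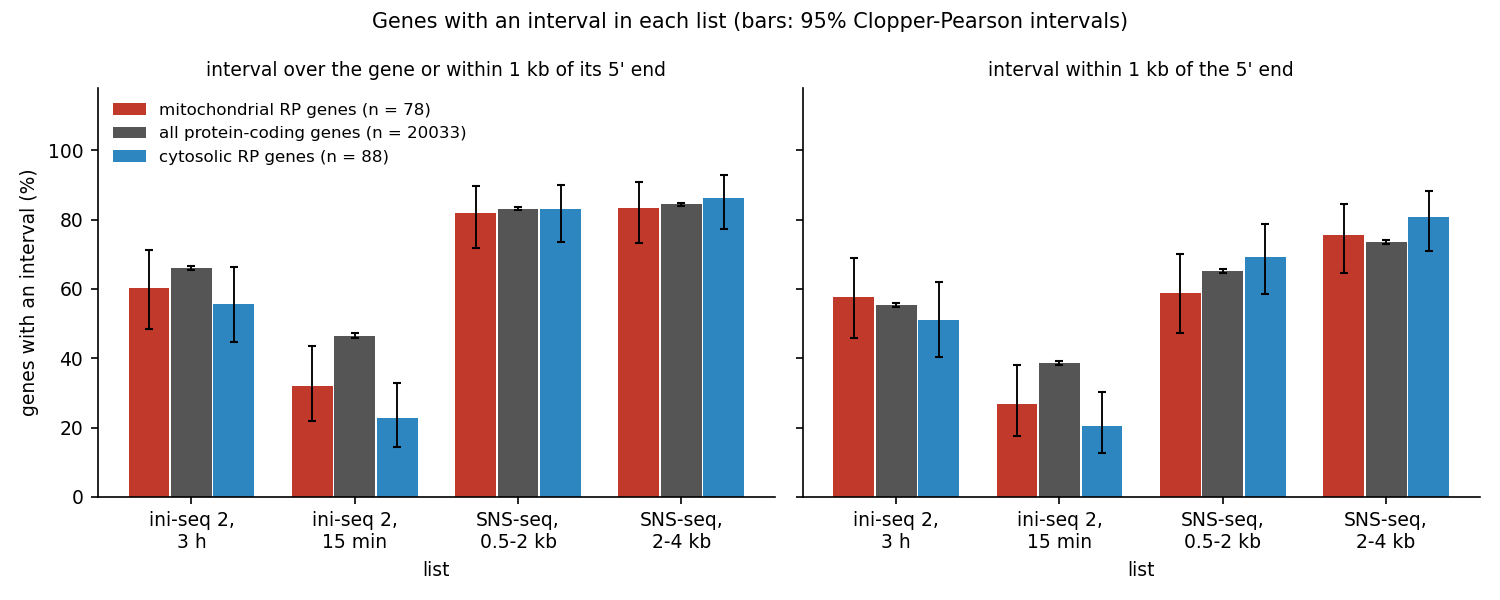
Share of genes with an interval in each of the 4 lists, for mitochondrial ribosomal protein genes, all protein-coding genes and cytosolic ribosomal protein genes, in percent with 95% Clopper-Pearson intervals, counted over the gene or within 1 kb of its 5' end (left) and within 1 kb of the 5' end (right). The members' 15-min shares, 32.1% and 26.9%, lie below those of all protein-coding genes, 46.5% and 38.7%, and in the 3-h and SNS-seq lists the members' intervals hold the share of all protein-coding genes.

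The counts were also taken by symbol, and the intervals of the MRPL and MRPS genes overlapped widely. Of the MRPL genes 31 of 49 had a 3-h origin, 63.3% (48.3 to 76.6%), and of the MRPS genes 16 of 29, 55.2% (35.7 to 73.6%). At 15 min the shares were 32.7% of MRPL and 31.0% of MRPS genes.

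Across the lists the commonest pattern was an interval in all 4, in 25 members, 32.1% beside 45.3% of all protein-coding genes. A further 17 members, 21.8% beside 14.6%, had SNS-seq peaks in both fractions and no ini-seq 2 origin. Another 16, 20.5% beside 19.1%, had a 3-h origin with both SNS-seq fractions but no 15-min origin. No interval at all was found at 6 members, 7.69% (2.88 to 16.0%), beside 12.3%. They were MRPL1, MRPL13, MRPL23, MRPL32 and MRPL46 of the large subunit and MRPS10 of the small subunit. Their GC content around the 5' end was between 47.9% in MRPS10 and 55.8% in MRPL32, except for the 77.3% of MRPL23.

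A 3-h origin was found at 60.3% of members, beside 66.0% of all protein-coding genes, as given above. The 31 members without one were 18 MRPL and 13 MRPS genes, and 25 of them had an SNS-seq peak. None of the 25 had a 15-min origin. Both fractions were present at 17, 21.8% of the members beside 14.6% of all protein-coding genes with this pattern. The fraction of shorter strands alone was present at 6, 7.69% beside 2.82%. That of longer strands alone was present at 2, 2.56% beside 3.13%. Besides the 6 genes without any interval, the members without a 3-h origin were MRPL2, MRPL10, MRPL17, MRPL22, MRPL24, MRPL27, MRPL30, MRPL35, MRPL42, MRPL45, MRPL47, MRPL50 and MRPL53 of the large subunit. Further MRPS genes without a 3-h origin were MRPS11, MRPS12, MRPS14, MRPS16, MRPS18A, MRPS18B, MRPS18C, MRPS21, MRPS22, MRPS28, MRPS31 and MRPS33. MRPS18A, MRPS18B and MRPS18C encode 3 related versions of one bacterial ribosomal protein, and none of the 3 had a 3-h origin. In the gene record of MRPS22, a small subunit gene, the annotated 5' end lies 338214 bp from that of its canonical transcript. MRPS22 nevertheless had 18 and 23 SNS-seq peaks, the counts over a record of 354692 bp.

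Most members with a 3-h origin had 1. There were 37 members with 1 origin, 9 with 2 and 1 with 3, together 58 origins, and no origin was counted for more than 1 member. The member with 3 was MRPL34, a large subunit gene, with efficiencies of 0.8757 at the 5' end and 0.908 and 0.8485 in the gene body, 10092 and 13192 bp from the 5' end. With the 5' end alone counted, the share with a 3-h origin fell from 60.3% to 57.7% in members. In all protein-coding genes it fell from 66.0% to 55.4%. In MRPL37 and MRPS27 the only 3-h origin lay in the gene body. For MRPL37 it lay 16160 bp from the 5' end of the gene record, at an efficiency of 0.8733, and the 5' end of its canonical transcript is 16126 bp inside the record. For MRPS27, a small subunit protein of the pentatricopeptide repeat type, it lay 13017 bp inside at an efficiency of 0.9038, and a 15-min origin with a Z-score of -1.80 overlapped it.

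The 3-h origins sat on the 5' ends. The 5' end itself lay inside an origin in 36 members, 46.2% (34.8 to 57.8%), beside 42.5% of all protein-coding genes. The middle of the origin lay at a median of 59.5 bp (5.5 to 155.5 bp) downstream of the 5' end in the members and 193.5 bp in all protein-coding genes.

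**Figure D2:**
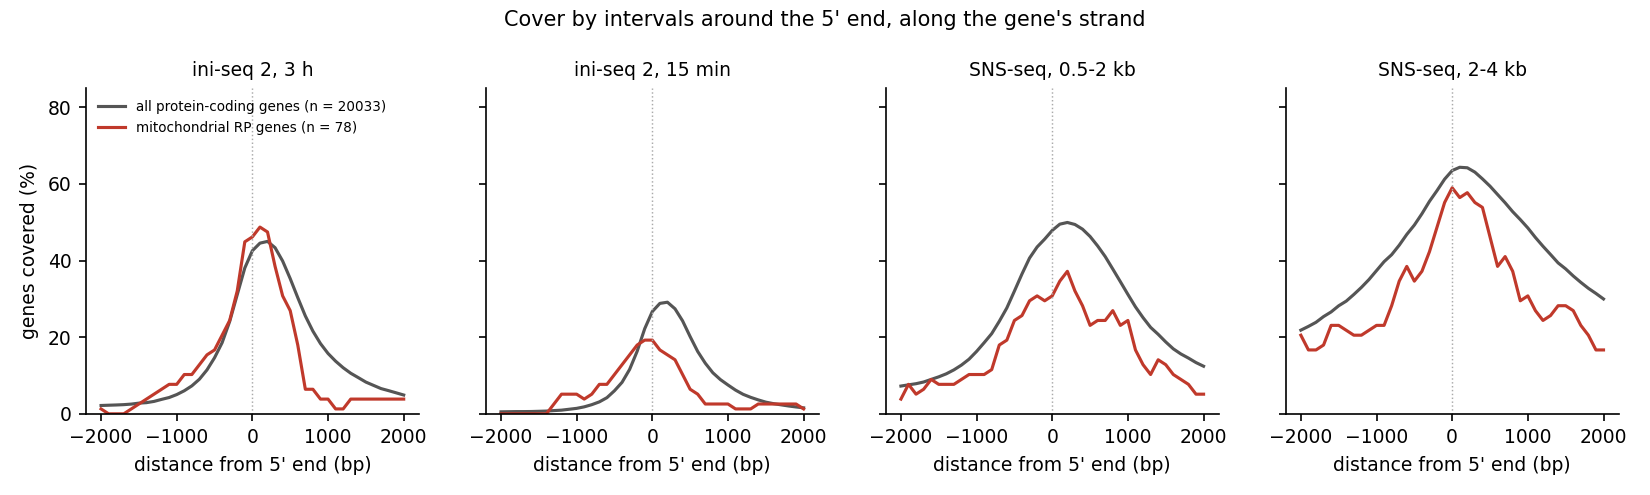
Share of genes covered by an interval, in percent, at each 100 bp from 2000 bp before to 2000 bp after the annotated 5' end along the gene's strand, for mitochondrial ribosomal protein genes and all protein-coding genes in the 4 lists. The members' 3-h curve peaks at 48.7% at 100 bp and that of all genes at 45.0% at 200 bp, while the 15-min peaks are 19.2% and 29.1% and the peaks of the 0.5-2 kb fraction 37.2% and 49.9%.

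The efficiencies of these 45 origins ran from 0.8044 to 0.9806 with a median of 0.8878 (0.8560 to 0.9188), and the median over the 5' ends of 11093 protein-coding genes was 0.9127. The list starts at an efficiency of 0.8, so no value lower than this could be seen. The 3-h list was divided into 3 classes of equal size, with low up to 0.8419 and high above 0.9065. By these classes the members held 16 high, 17 medium and 12 low origins, 35.6%, 37.8% and 26.7%, while all protein-coding 5' ends with an origin held 54.4%, 34.1% and 11.4%. The interval of the members' high share, 21.9 to 51.2%, lay below 54.4%, and that of their low share, 14.6 to 41.9%, lay above 11.4%. With classes of equal width between 0.8 and 1 the members' high share was 24.4% (12.9 to 39.5%) beside 33.7%, a value inside the interval, and their low share 35.6% (21.9 to 51.2%) beside 21.7%, a value at its edge.

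The highest efficiency was at MRPS34, a protein of the small subunit, with 0.9806 (chr16:1772701-1773900). MRPL28 of the large subunit followed with 0.9743, from an origin of 300 bp that lay 789 bp from the 5' end, and MRPS6 with 0.9708. MRPL38 had 0.9634 and MRPL14, a protein of the large subunit that faces the small one, had 0.9499. The lowest efficiency was at MRPL49, with 0.8044 (chr11:65121901-65122300). MRPL33 had 0.8114, MRPL51 had 0.8119, MRPL16 had 0.8122 and MRPL48 had 0.8148. All 10 of these genes but MRPS34 and MRPS6 belong to the large subunit. Of the 5 highest, only MRPL28 had no 15-min origin at its 5' end, and of the 5 lowest none had one.

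**Figure D3:**
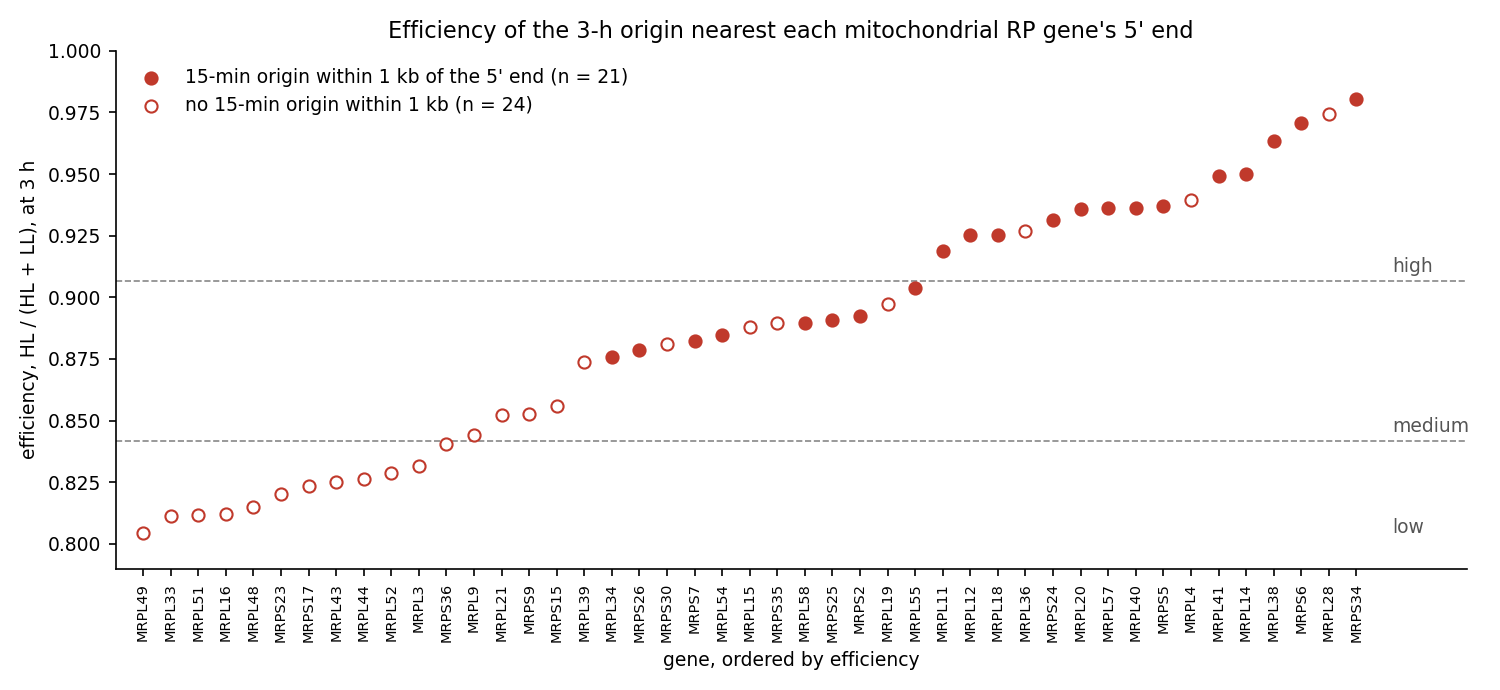
Efficiency at 3 h, HL/(HL + LL), of the origin nearest to the 5' end of each of the 45 mitochondrial ribosomal protein genes that had one within 1 kb, ordered by efficiency, with filled points for genes that also had a 15-min origin within 1 kb. Dashed lines are the class limits 0.8419 and 0.9065, and all 12 points under the lower line are open while 13 of the 16 points above the upper line are filled.

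At 15 min an origin was called at 13 members of the high class (n = 16), at 8 of the medium class (n = 17) and at 0 of the low class (n = 12). The corresponding shares over all protein-coding 5' ends were 91.4%, 50.2% and 13.01%, and the members' intervals were 54.4 to 96.0%, 22.98 to 72.2% and 0 to 26.5%, each of which holds the value of all genes. The median 3-h efficiency was 0.9254 in the 21 members called at both times and 0.8423 in the 24 called at 3 h alone. High class members without a 15-min origin at the 5' end were MRPL4, MRPL28 and MRPL36. MRPL36, a small protein of the large subunit, had a 15-min origin 1366 bp from the 5' end, inside a 3-h origin with an efficiency of 0.95. The 5' end of its canonical transcript lies 1529 bp inside the gene record, so its place among these members rests on the record.

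The Z-score of the 15-min list ranks an origin within that list. Over the 21 members it ran from -1.60 at MRPL54 to 1.28 at MRPS6, with a median of -0.48 (-0.88 to 0.08), beside a median of 0.14 over 7746 protein-coding genes. Only MRPS6, MRPL11 and MRPL14 were above 1. MRPS34, with the highest efficiency at 3 h, had a Z-score of -1.01 at 15 min. Across these 21 genes Pearson's r between efficiency and Z-score was 0.41, and Spearman's rho was 0.34. In 19 of the 21 members the 3-h origin was larger than the overlapping 15-min origin, with a median gain of 400 bp, beside 87.0% of protein-coding genes and a median gain of 300 bp.

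The SNS-seq peaks at the members were shorter than those at protein-coding 5' ends as a whole, and the interval of the 3-h origins' median length held the value of all. The 3-h origins had a median of 700 bp (500 to 900 bp), beside 900 bp at all protein-coding 5' ends and 700 bp over the whole 3-h list. By class the members' median lengths were 1100 bp for high, 700 bp for medium and 450 bp for low origins, beside 1000, 900 and 700 bp. The nearest SNS-seq peak of the 0.5-2 kb fraction had a median of 449.5 bp (319 to 874 bp), beside 1201 bp, and that of the 2-4 kb fraction a median of 763 bp (570 to 1491 bp), beside 2028.5 bp. Both intervals lay below the values of all protein-coding 5' ends, while the medians over the whole SNS-seq lists, 283 and 339 bp, were lower than the members'. Cytosolic ribosomal protein genes had medians of 600 bp at 3 h and of 376 and 745 bp in the SNS-seq fractions.

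Some members had an interval by one method and none by the other. MRPL3, which encodes a large subunit protein next to the catalytic centre, had a 3-h origin of 300 bp with an efficiency of 0.8316 and no SNS-seq peak in either fraction. It was the only member with a 3-h origin and no peak, a pattern of 0.245% of all protein-coding genes. At the 5' end alone, MRPL33 and MRPS17 had a 3-h origin without a peak as well. In the other direction, 19 members, 24.4% (15.3 to 35.4%) beside 19.2% of all protein-coding genes, had an SNS-seq peak and no ini-seq 2 origin at the 5' end, a share near the background. They were the 11 with both fractions, the 6 with the 2-4 kb fraction alone (MRPL24, MRPL35, MRPL50, MRPS14, MRPS16 and MRPS28) and the 2 with the 0.5-2 kb fraction alone (MRPL30 and MRPS18C).

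GC content around the 5' end moved with the calls. The members' median GC content within 500 bp on each side was 56.8% (55.1 to 58.9%), beside 59.2% for all protein-coding genes, and their median observed-to-expected CpG ratio was 0.77 beside 0.69. It was 60.2% in the 45 members with a 3-h origin at the 5' end and 53.9% in the other 33, beside 64.2% and 51.2% for all protein-coding genes. By class it was 68.2% in high, 60.9% in medium and 56.4% in low members. Across the 45 origins Pearson's r of GC content with efficiency was 0.59 and Spearman's rho was 0.59, and over 11093 protein-coding genes they were 0.34 and 0.37. The part of base composition in the calls was not tested.

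The members were gathered in one band of GC content. Between 50 and 60% lay 46 members, 59.0%, beside 31.5% of all protein-coding genes. In this band 21 of 46 members had a 3-h origin at the 5' end, 45.7% (30.9 to 61.0%), beside 40.8% of all genes in the band. A 15-min origin was found there at 2 of the 46, 4.35% (0.53 to 14.8%), beside 16.0%, a value above the members' interval. The cytosolic ribosomal protein genes were near the members in this, with 54.5% of them in the band. Of these, 3 of 48 had a 15-min origin at the 5' end, 6.25% (1.31 to 17.2%). Between 60 and 70% the members' shares were 88.9% (16 of 18) beside 84.7% at 3 h and 61.1% (11 of 18) beside 59.98% at 15 min. At 70% or more, 7 of 8 members had both, 87.5%, beside 93.5% and 95.4%. The exception was MRPL23. Under 50% lay 6 members, of which 1, MRPL54, had origins at both times, 16.7% (0.42 to 64.1%), beside 7.70% at 3 h and 4.41% at 15 min.

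**Figure D4:**
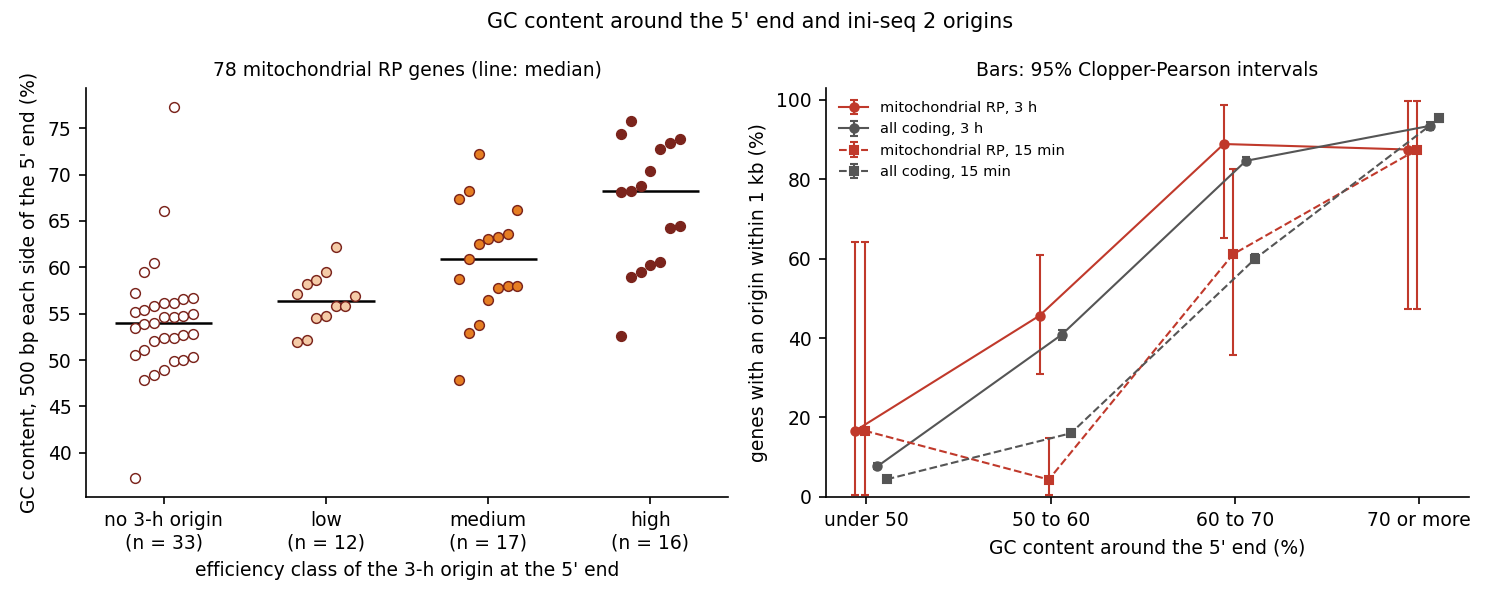
Left, GC content in percent within 500 bp on each side of the 5' end of the 78 mitochondrial ribosomal protein genes, by efficiency class of the 3-h origin there, with a line at the median (53.9%, 56.4%, 60.9% and 68.2%). Right, share of genes with a 3-h or 15-min origin within 1 kb of the 5' end in 4 bands of GC content, for members and all protein-coding genes, with 95% Clopper-Pearson intervals. The members' intervals hold the value of all genes in each band except at 15 min in the 50 to 60% band, 4.35% against 16.0%.

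A G-quadruplex motif, here 4 runs of at least 3 G on either strand with loops of up to 7 bases, was present in 28 of the members' 45 origins, 62.2% (46.5 to 76.2%), beside 78.02% of the origins at all protein-coding 5' ends. The members' origins had a lower median GC content, 66.9% (66.1 to 68.9%) beside 69.0%. Their median length was 700 bp (500 to 900 bp) beside 900 bp, a value at the edge of the interval. Whether length or GC content bears on the G-quadruplex share was not tested.

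Divergent promoters were more frequent than among all protein-coding genes, and the shares of assembly factors, synthetases and translation factors of the mitochondrial ribosome lay inside the members' interval. A protein-coding neighbour on the opposite strand, with its 5' end within 1 kb and the genes pointing apart, was found for 27 members, 34.6% (24.2 to 46.2%), beside 13.4% of all protein-coding genes. With neighbours of any gene type it was 33 members, 42.3%, beside 26.6%. A protein-coding divergent neighbour was found for 41.4% of the 29 ribosome assembly factors (23.5 to 61.1%), 45.5% of the 22 mitochondrial aminoacyl-tRNA synthetases and related enzymes (24.4 to 67.8%) and 31.2% of the 16 translation factors (11.0 to 58.7%). By symbol it was 20 of the 49 MRPL genes, 40.8%, and 7 of the 29 MRPS genes, 24.1%. The median distance between the 5' ends was 109 bp (63 to 411 bp), beside 197 bp for all divergent protein-coding genes. In 10 of the 27 the transcribed stretches overlapped at their starts, 37.0% beside 36.4%.

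Among the members, those with a divergent promoter did not stand out by their origins. Of the 27, 14 had a 3-h origin at the 5' end, 51.9% (31.9 to 71.3%), whereas 74.7% of all 2679 divergent protein-coding genes did, a value above the members' interval. Of the other 51 members 31 had one, 60.8% (46.1 to 74.2%), beside 52.4% of the other protein-coding genes. With a GC content under 60% the share was 5 of 16 in divergent members, 31.2% (11.0 to 58.7%), beside 50.9%, and at 60% or more 9 of 11, 81.8% (48.2 to 97.7%), beside 91.8%. Both of these intervals hold the value of all divergent genes in the same range of GC content. Among the other members under 60% it was 17 of 36, 47.2% (30.4 to 64.5%), beside 24.6% of all protein-coding genes without such a neighbour, a value below the members' interval. At 60% or more it was 14 of 15, 93.3% (68.1 to 99.8%), beside 86.1%. The range under 60% does not match GC content. Under 50% lay 7.69% of members and 21.6% of all protein-coding genes, of which 7.70% had a 3-h origin at the 5' end. Between 50 and 60%, with divergent and other genes pooled, the members stood at 45.7% beside 40.8%.

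**Figure D5:**
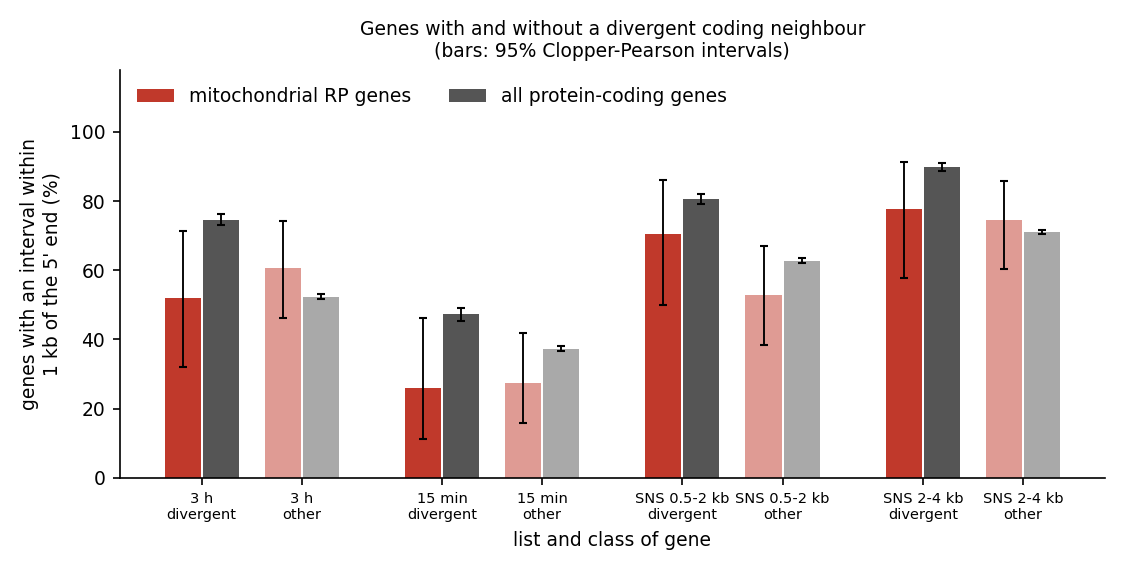
Share of genes with an interval within 1 kb of the 5' end in each of the 4 lists, in percent with 95% Clopper-Pearson intervals, for genes with a divergent protein-coding neighbour and for the others, among mitochondrial ribosomal protein genes (27 and 51) and all protein-coding genes (2679 and 17354). At 3 h divergent members stand at 51.9% against 74.7% of all divergent genes, and in every list all divergent genes lie above the other genes.

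The 14 divergent members with an origin fell into 6 high, 4 medium and 4 low, and 7 had a 15-min origin. In 8 of the 14 the origin covered both starts, 57.1% (28.9 to 82.3%), beside 68.2% of all divergent genes with an origin. High class pairs were MRPS34 with EME2 (0.9806), MRPL14 with TMEM63B (0.9499) and MRPL57 with SKA3 (0.9363). MRPL36 with NDUFS6 (0.9271), MRPL18 with TCP1 (0.9254) and MRPL11 with PELI3 (0.9188) completed the class. EME2 encodes a subunit of a structure-specific nuclease, TMEM63B a membrane channel, NDUFS6 a subunit of respiratory complex I, TCP1 a subunit of the cytosolic chaperonin, and PELI3 a ubiquitin ligase. The TCP1 origin ended 12 bp short of the MRPL18 start and lay on the TCP1 side.

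In the medium class were MRPL54 with APBA3 (0.8847), MRPS7 with GGA3 (0.8823), MRPL21 with IGHMBP2 (0.8522) and MRPL9 with OAZ3 (0.8441). GGA3 encodes a sorting adaptor of the Golgi, IGHMBP2 a helicase and OAZ3 an inhibitor of polyamine synthesis. The low class held MRPL52 with SLC7A7 (0.8289), MRPL43 with TWNK (0.8250), MRPL51 with NCAPD2 (0.8119) and MRPL49 with FAU (0.8044). TWNK encodes the helicase that replicates mitochondrial DNA, NCAPD2 a subunit of condensin, SLC7A7 an amino acid transporter, and FAU a precursor of a cytosolic ribosomal protein. At MRPL52 the origin was 300 bp long and began 122 bp downstream of the MRPL52 start.

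The 13 divergent members without a 3-h origin were MRPL46 and MRPS11 with each other, MRPL47 with NDUFB5, MRPS12 with SARS2, MRPS18C with HELQ and MRPL13 with MTBP, and further MRPL27 with EME1, MRPL30 with MITD1, MRPL10 with LRRC46, MRPL50 with ZNF189, MRPS18B with PPP1R10, MRPS22 with PRR23A and MRPL32 with a coding gene that has no symbol. NDUFB5 encodes a subunit of complex I, HELQ a DNA helicase, MTBP a factor of replication initiation, and EME1 a nuclease subunit. MRPL46 had no interval in any list and MRPS11 had 1 peak in each SNS-seq fraction, neither within 1 kb of the 5' end, so the promoter shared by these 2 members was empty in all 4 lists.

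Promoter motifs were counted from 250 bp before to 50 bp after the 5' end on both strands. The ETS motif was in 26 members, 33.3% (23.1 to 44.9%), beside 11.9% of all protein-coding genes. The YY1 motif was in 15, 19.2% (11.2 to 29.7%), beside 3.03%, and the NRF1 core in 8, 10.3% (4.53 to 19.2%), beside 3.78%. Among the 88 cytosolic ribosomal protein genes the ETS motif was in 26.1% (17.3 to 36.6%), a value inside the members' interval. Their shares for YY1, 7.95% (3.26 to 15.7%), and for the NRF1 core, 3.41% (0.71 to 9.64%), lay below the members' intervals. NRF1, ETS and YY1 factors are known regulators of nuclear genes for mitochondrial proteins, and a match of letters is not a bound site. The GC box was in 45 members, 57.7% beside 52.4%, CCAAT in 23, 29.5% beside 35.9%, and TATAAA in 4, 5.13% beside 10.8%.

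Members with a YY1 match in this window had fewer origins than members without one. A 3-h origin lay at the 5' end of 3 of the 15, 20% (4.33 to 48.1%), namely MRPL20, MRPL52 and MRPS30, and of 42 of the 63 without a match, 66.7% (53.7 to 78.05%). Over all protein-coding genes the same shares were 63.0% of 608 and 55.1% of 19425. The median GC content was 54.6% in the 15 members and 57.9% in the 63. Within the band of 50 to 60% it was 2 of 12 members with a match, 16.7% (2.09 to 48.4%), and 19 of 34 without, 55.9% (37.9 to 72.8%), beside 41.6% and 40.8% of all protein-coding genes. This split was picked out after the values of 6 motifs had been seen, 8 of the 15 are in divergent pairs, and MRPL46 and MRPS11 share 1 promoter. With the window widened to 500 bp on each side, a choice made after seeing the data, 9 of 23 members with a match had an origin, 39.1% (19.7 to 61.5%), and 36 of 55 without, 65.5% (51.4 to 77.8%), beside 59.1% and 55.1% of all protein-coding genes. The intervals of the members with and without a match overlap in that window. For the ETS motif the shares were 53.8% (33.4 to 73.4%) with and 59.6% without a match, beside 68.8% and 53.6% of all protein-coding genes. For the NRF1 core they were 2 of 8, 25% (3.19 to 65.1%), and 43 of 70, 61.4%, beside 67.6% and 54.9%. For both motifs the members' order was thus opposite to that of all protein-coding genes. The intervals of members with and without a match overlap for both. Of the shares of all genes with a match, 68.8% lay inside and 67.6% above the members' interval.

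The surroundings of the members' origins held other origins. Within 100 kb of the origin at the 5' end lay a median of 4 other 3-h origins, beside 3 for all origins at protein-coding 5' ends, and 5 of the 45, 11.1%, had none, beside 19.1%. The median distance to the next origin was 21.3 kb beside 27.1 kb.

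Cytosolic ribosomal proteins make the ribosome that translates nuclear messages, and their 88 genes were near the mitochondrial ones in some values and apart in others. A 3-h origin was found at 49 of the 88, 55.7% (44.7 to 66.3%), and a 15-min origin at 20, 22.7% (14.5 to 32.9%). The median efficiency at the 5' end was 0.8768 (n = 45), beside 0.8878 in the members. Their median GC content was 56.9%, beside 56.8%. Their origins fell into 10 high, 23 medium and 12 low, beside the members' 16, 17 and 12. A divergent coding neighbour was found for 16, 18.2% (10.8 to 27.8%), beside the members' 34.6%, of which 13 had a 3-h origin at the 5' end, 81.2% (54.4 to 96.0%), beside the 51.9% of the divergent members. These 2 intervals overlap.

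Other genes of mitochondrial translation were taken from 4 lists. Of 29 factors that assemble or modify the mitochondrial ribosome, 23 had a 3-h origin, 79.3% (60.3 to 92.0%), with GRSF1 (0.9637), an RNA-binding protein of mitochondrial RNA granules, the highest. Of 22 mitochondrial aminoacyl-tRNA synthetases and related enzymes 13 had one, 59.1% (36.4 to 79.3%), and of 16 translation factors and regulators 7, 43.8% (19.8 to 70.1%). Each of these intervals holds the 66.0% of all protein-coding genes. The translation factors and regulators without one were MTIF2, TUFM, TSFM, GFM1, GFM2, MTRF1, SLIRP, OXA1L and GUF1. Of the 5 mitochondrial ribosomal proteins with other symbols, DAP3, CHCHD1, AURKAIP1 and GADD45GIP1 had a 3-h origin at the 5' end and PTCD3 did not, and counting these 5 with the members gave 61.4% of 83. MRPS36 was kept as a member by its symbol, although its product is also known as a subunit of the oxoglutarate dehydrogenase complex.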

How the data were processed

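The authors aligned reads to hg38 with bowtie2, kept unique reads and removed duplicates with samtools. For ini-seq 2 they counted HL and LL reads per 100 bp window, scaled to library totals. Windows reaching a log2 ratio of 2 were merged across gaps of up to 500 bp, and merged intervals with an efficiency under 0.8 were dropped. Values deposited at 3 h are efficiencies, a fraction (the column is headed Z-score), and those deposited at 15 min are a score, standardised within that list. For SNS-seq the authors ran MACS2 with a genomic DNA input and deposited positions alone.

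Intervals were joined to genes in pandas 2.3.3 under Python 3.11.15 (pysam 0.24.0, samtools 1.23.1, scipy 1.17.1, numpy 2.4.6), with hg38 and GENCODE 44 (chromosomes 1 to 22, X and Y). The 5' end is that of the gene record. Interval code was tested on simulated data. Genes named in the text are those without a 3-h origin, the 5 highest and 5 lowest efficiencies, those whose lists parted, those with 3 or more origins or with origins in the body alone, and all divergent pairs. The members and lists were chosen with earlier results of these data known. Alternatives were other distances, the canonical transcript's 5' end, stricter calls, other windows and other classes. Some promoter sequences are not reported here.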

Additional observations from a re-analysis of the deposited data

How the results depend on the processing

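With 1 list per condition no replicate could be left out. No paired analysis was possible because no test was made and no group held replicates. Of 74 alternative values over 29 results, 64 stayed inside the 95% interval of the reported value and 10 moved out of it. Counting only 3-h origins with an efficiency of at least 0.9 left 24.4% of members beside 40.9% of all protein-coding genes, and only 15-min origins with a Z-score above 0 left 8.97% beside 26.4%. The 0.5-2 kb peaks fell to 59.0% at the 5' end only, and peaks covered in both fractions were at 67.9% of members for either fraction, beside 76.9% and 77.1%. Median GC content was 60.2% over the promoter window, beside 60.3%, and 51.7% within 1 kb on each side, beside 55.0%. Within 500 bp on each side the GC box was in 82.1% (71.7 to 89.8%) of members, beside 72.0% of all protein-coding genes. CCAAT was in 61.5% (49.8 to 72.3%) beside 65.7%, and TATAAA in 24.4% (15.3 to 35.4%) beside 26.9%. Each of these intervals holds the value of all genes. The difference in median GC content between members and all genes was thus nearly absent in the promoter window. The canonical 5' end moved by over 1 kb in 6 members and added an origin at MRPL37 only. Taking it for both genes of a pair, an alternative chosen after seeing the data, gave 27 divergent members again, 34.6% beside 10.02%, of which 22 were shared. MRPL9, MRPL11, MRPL36, MRPL52 and MRPS22 left and MRPL2, MRPL37, MRPL40, MRPS2 and MRPS27 came in, so the printed MRPL52-SLC7A7 interval rests on gene records. Depth is unknown, so an absent interval is not an absent origin.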
